A study of Homo sapiens with 12 samples.

Results

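The cluster of miR-221 and miR-222 was measured as its 2 guide strands, hsa-miR-221 and hsa-miR-222 on the array and given here without the species prefix, 2 of the 851 human microRNA names on the array. They were chosen by name because the cluster is linked to basal-like breast cancer and to the cell-cycle inhibitor p27. The cells were SUM159, a human triple-negative breast cancer line, stably infected with a lentiviral PLKO.1 vector. The vector expressed a scrambled shRNA in the control line and an shRNA targeting Dicer in the other. Each of these lines received vehicle (PBS) or 0.5 mM metformin, a diabetes drug, for 24 h, which gave 4 groups of 3 replicates that the labels call biological. Every group carried the same vector backbone and grew with insulin and hydrocortisone in the medium. As the array names show, slide 1 held both vehicle groups and slide 2 both metformin groups, so that metformin and slide cannot be told apart. On each slide the control shRNA arrays came before the Dicer shRNA arrays, so that the line and the position cannot be told apart. Groups follow the titles, with which the descriptions and characteristics agree. The source names call both metformin groups control, one of them untreated (the group titled control) and the other treated (the group titled Dicer). Were the source names right, the comparison within slide 2 would not be one between the lines, and each result below that uses the metformin arrays rests on the titles. Whether each line was a pool or 1 clone is not given in the sources used here. The arrays do not measure the Dicer mRNA, and the knockdown itself was not checked here.

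The 2 microRNAs are cut from neighbouring hairpins of one transcript. Drosha releases the hairpins in the nucleus, Dicer removes the loop in the cytoplasm, and one strand of the resulting duplex is loaded into Argonaute as the guide. The guide finds messages through its seed, the bases near its 5′ end. In breast cancer the cluster is known for repressing CDKN1B (p27), CDKN1C (p57), the oestrogen receptor ESR1 and TRPS1, and for its high level in basal-like and mesenchymal cells.

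The sequences are shown because the members share a seed and one source. In RefSeq (GRCh38.p14) both hairpins lie on the minus strand of chromosome X, MIR221 at chrX:45746157-45746266 and MIR222 at chrX:45747015-45747124, with 748 bases between them. Both fall within the span of the long non-coding RNA gene MIR222HG, at chrX:45745214-45770267. Both names matched a mature entry of the 3′ arm, and bases 2 to 8, the seed, are in capitals in the mature strands:
miR-221-3p: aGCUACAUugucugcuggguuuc
miR-222-3p: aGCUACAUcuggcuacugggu
The first 8 bases of both strands are the same, and 11 of 21 positions are alike when the strands are set against each other from the 5′ end. A 6-base run, CUGGGU, recurs near both 3′ ends. Of 2370 mature human names in the RefSeq table, these 2 alone hold the seed GCUACAU, whose complement in a target message is AUGUAGC. The hairpins that Dicer cuts carry the guide, in capitals, in their 3′ arm:
MIR221 hairpin: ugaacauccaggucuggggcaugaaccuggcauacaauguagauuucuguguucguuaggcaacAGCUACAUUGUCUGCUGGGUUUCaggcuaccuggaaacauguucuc
MIR222 hairpin: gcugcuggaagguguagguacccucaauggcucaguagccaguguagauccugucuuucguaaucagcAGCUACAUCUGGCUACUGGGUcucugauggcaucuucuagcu
The strands opposite the guides, miR-221* and miR-222*, have their own names on the array and were detected on 0 of 12 arrays, where the lowest detected signals of human microRNAs were 1.64 to 3.78. The guides were detected on all 12 arrays.

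Signals are total gene signals of 1-colour arrays, divided by an array factor of 0.869 to 1.20 that sets the 75th percentile of 98 microRNAs detected on every array to one level. Changes are log2 differences ± SE from limma, and a call is an adjusted p under 0.05 (Benjamini-Hochberg) over the 208 human names that every array of some group detected. Each SE, interval and p rests on a single estimate of spread per microRNA, shared by all 4 groups, and not on the spread of the compared groups alone. For miR-221 the SD (log2) of a group ran from 0.07 to 0.71. Without replicate 1 of control shRNA with metformin, its SE between the lines under vehicle was 0.17, against 0.30. The arrays detected 130 to 204 human names. With 3 arrays a group, their number limits the precision. Of the 6 epithelial markers checked, miR-205 was detected on all 12 arrays and the miR-200 family with miR-141 and miR-429 on none. Of 4 blood markers miR-451, miR-144 and miR-142-3p were detected on none, while miR-223 was detected on the 3 control shRNA arrays with metformin alone. Of 4 muscle markers, miR-133a was detected on all 3 arrays of each metformin group and on 2 of 3 of each vehicle group. miR-133b was detected on 3 control shRNA arrays and 1 Dicer shRNA array with metformin, and the other muscle markers on none. The liver marker miR-122 was detected on none. Of 3 brain markers only miR-128 was detected, on the 3 control shRNA arrays with vehicle.

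In control shRNA cells with vehicle, miR-221 had scaled signals of 152, 159 and 167, and miR-222 had scaled signals of 265, 257 and 259. These were the highest values of each member in the study. In Dicer shRNA cells with vehicle, miR-221 had 70.5, 84.1 and 77.2. There miR-222 had 146, 173 and 165. For both members each Dicer shRNA array lay below each control shRNA array on this slide. In RNA of whole cultures, less of a microRNA per cell and fewer cells with it cannot be told apart. In control shRNA cells with metformin, miR-221 had 4.40, 11.1 and 9.30, the lowest values of the series, and replicate 1 stood below the other 2. There miR-222 had 18.6, 27.3 and 23.0, again with replicate 1 lowest. In Dicer shRNA cells with metformin, miR-221 had 36.8, 50.3 and 31.3, and miR-222 had 92.7, 96.0 and 92.1. For each member these values lay above all control shRNA arrays with metformin and below all vehicle arrays of either line.

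Both members therefore had one order of levels. On the log2 scale miR-221 had a mean of 7.32 ± 0.07 (SD, n = 3) in the control shRNA line and of 6.27 ± 0.13 (SD, n = 3) in the Dicer shRNA line under vehicle. Under metformin it had 5.27 ± 0.35 (SD, n = 3) in the Dicer shRNA line and 2.94 ± 0.71 (SD, n = 3) in the control shRNA line. In the same sequence the means of miR-222 were 8.02 ± 0.02, 7.33 ± 0.13, 6.55 ± 0.03 and 4.50 ± 0.28 (SD, n = 3 each). No neighbouring groups in this order overlapped for either member. The spread of miR-221 was widest where it was dimmest. The error that the scanner software states for miR-221 was 7.34% to 8.48% of the signal on the vehicle arrays and 17.5% to 32.3% on the control shRNA arrays with metformin, with 32.3% on replicate 1. For miR-222 it was 9.41% to 12.4% on all 12 arrays. The authors' deposited table of log2 values gave the same order, with means of 7.36, 5.99, 5.57 and 3.11 for miR-221 and 8.03, 7.20, 6.78 and 4.61 for miR-222, again in that sequence.

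**Figure D1:**
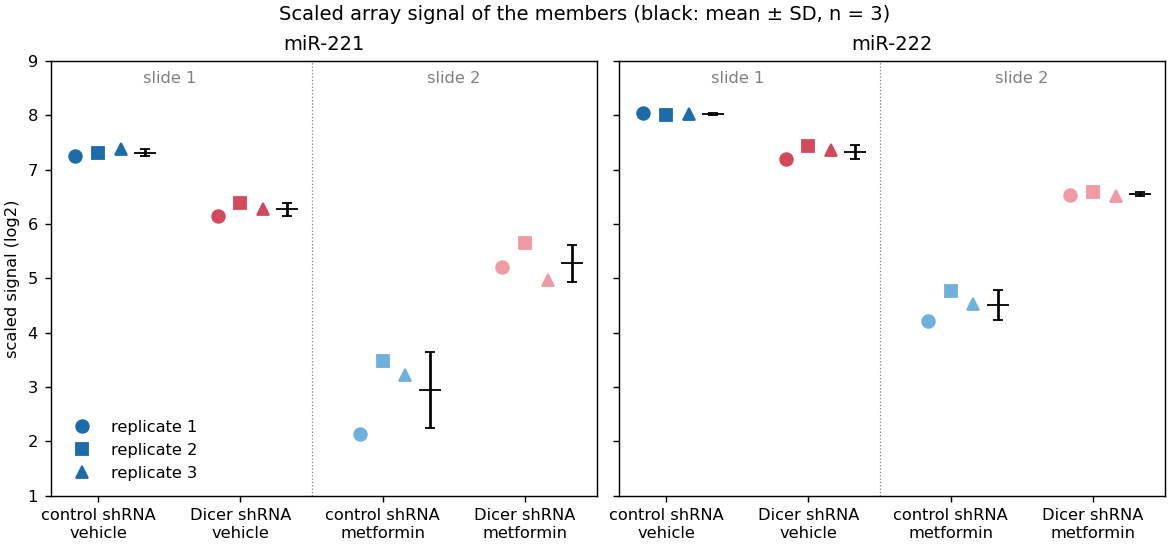
Scaled signal (log2) of miR-221 and miR-222 on each of the 12 arrays, with a marker per replicate and the mean ± SD (n = 3) of each group in black. Both members run from control shRNA with vehicle (means 7.32 and 8.02) to control shRNA with metformin (2.94 and 4.50), and no 2 neighbouring groups in the order of levels overlap.

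The first question was how the members differed between the lines under vehicle, since Dicer cuts both hairpins. miR-221 fell by 1.05 ± 0.30 in Dicer shRNA cells, or 2.07-fold (adjusted p 0.012, limma), and miR-222 fell by 0.69 ± 0.13, or 1.62-fold (adjusted p 0.00099). The 95% intervals of these differences ran from -1.72 to -0.37 for miR-221 and from -0.99 to -0.40 for miR-222. Both members were called lower, as were 38% of the 208 tested (59.6% were called in either direction), and in both the groups did not overlap, as in 39.4% of those tested in this direction. The 208 include names that passed the filter through a single group. When only the 98 names detected on all 12 arrays were tested, 24 were called lower and 40 higher. Of the tested microRNAs, 56 had values below that of miR-221 and 65 below that of miR-222, and the median over all tested was 0.00. The members were thus among the lower microRNAs of Dicer shRNA cells without being at the end of the range. The array also carries 4 control features named hur that were detected on all 12 arrays, and in this comparison all 4 were lower (-1.22 to -0.17, median -0.81). What the hur features detect is not given in the sources used here, so they are not known to be steady between groups. The median of 10 viral microRNA probes, for which the array has names beside the human ones, was 0.87, with all 10 higher. When the arrays were scaled to the mean log2 signal of the hur features, an alternative chosen after seeing the data, miR-221 had -0.29 ± 0.19 (adjusted p 0.26) and miR-222 had 0.060 ± 0.11 (adjusted p 0.79), so neither was called. After quantile normalization the values were -0.73 (adjusted p 0.11) and 0.12 (adjusted p 0.58), and without a filter on dim microRNAs the adjusted p of miR-221 was 0.091. The falls were larger after scaling to the viral probes, at -2.25 (adjusted p 0.00018) for miR-221 and -1.89 (adjusted p 3.3e-05) for miR-222, and -1.11 for miR-222 after median scaling. The split of all calls moved as well, from 45 higher and 79 lower to 61 and 53 after quantile normalization, 32 and 90 after median scaling, 4 and 128 with the viral probes, 48 and 55 with the median signal of the hur features and 67 and 39 with their mean log2.

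Under metformin the difference between the lines had the opposite sign. miR-221 rose by 2.33 ± 0.30 in Dicer shRNA cells over control shRNA cells, or 5.03-fold (adjusted p 0.00014, limma), and miR-222 rose by 2.05 ± 0.13, or 4.13-fold (adjusted p 8.2e-07). The 95% intervals were 1.66 to 3.01 and 1.75 to 2.34. Both members were called higher, against 13.9% of the 208 tested (38.9% were called in either direction), and their groups did not overlap, again against 13.9% in this direction. Among the 98 names detected on all 12 arrays, tested alone, 18 were called higher and 26 lower. Of the tested microRNAs, 5 had values above that of miR-221 and 12 above that of miR-222, while the median over all tested was -0.24. The 4 hur features were higher too (0.39 to 2.60, median 1.95), and 9 of the 10 viral probes were lower (median -0.49). Scaled to the mean log2 of the hur features, the members were still called higher, but the changes were 0.61 ± 0.19 (adjusted p 0.018) for miR-221 and 0.33 ± 0.11 (adjusted p 0.024) for miR-222. When 16 was added to each signal instead of setting a floor, the value of miR-221 was 1.19 and that of miR-222 was 1.50, both called. The split of all calls, 29 higher and 52 lower, was 23 and 106 after median scaling, 28 and 24 with the viral probes, 25 and 99 and then 13 and 138 with the median and the mean log2 of the hur features, and 31 and 36 with the authors' values.

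The second question was how metformin arrays differed from vehicle arrays within a line. In control shRNA cells, miR-221 fell by 4.37 ± 0.30 with metformin, or 20.7-fold (adjusted p 2.5e-07, limma), and miR-222 fell by 3.52 ± 0.13, or 11.5-fold (adjusted p 2.5e-09). The 95% intervals were -5.05 to -3.70 and -3.81 to -3.23. Of the 208 tested, 40.4% were called lower and 88% were called in either direction, and 21 had values below that of miR-221 and 29 below that of miR-222. In both members the groups did not overlap, as in 40.4% of those tested in this direction. Among the 98 names detected on all 12 arrays, tested alone, 25 were called lower and 61 higher. The median over all tested was 0.52, though -0.91 after scaling to the viral probes and 3.26 with the mean log2 of the hur features. The median of all tested also moved between the lines, to -0.98 under vehicle with the viral probes and to -1.95 under metformin with the mean log2 of the hur features. This comparison and the next cross the slides. The 4 hur features were lower over the same arrays (-5.03 to -0.86, median -3.84), and the 10 viral probes were all higher (median 1.38). Scaled to the mean log2 of the hur features, miR-221 was lower by a called -0.98 ± 0.19 (adjusted p 9e-04), while the miR-222 value of -0.13 ± 0.11 (adjusted p 0.30) was not called. With the median signal of the hur features in place of their mean log2, the values were -3.34 and -2.48, both called. The hur features differed widely among themselves, and the result depends on how they are averaged. After scaling to the viral probes the values were -5.90 and -5.07, and with 16 added to each signal they were -2.86 and -2.83, all called. The split of all calls, 99 higher and 84 lower, was 44 and 117 with the viral probes and 139 and 45 with the mean log2 of the hur features.

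In Dicer shRNA cells the metformin arrays were lower by less. miR-222 fell by 0.78 ± 0.13, or 1.72-fold (adjusted p 0.0017, limma), with a 95% interval of -1.07 to -0.49. miR-221 fell by 0.99 ± 0.30, or 1.99-fold (adjusted p 0.038), with an interval of -1.67 to -0.32. Both members were called lower, against 18.3% of the 208 tested (24.5% were called in either direction), and the groups did not overlap in either, against 20.7% of those tested in this direction. Among the 98 names detected on all 12 arrays, tested alone, 16 were called lower and 12 higher. The median over all tested was 0.00, and 21 had values below that of miR-221 and 33 below that of miR-222. The hur features were all lower (-1.38 to -0.30, median -0.999), and 8 of the 10 viral probes were higher (median 0.34). Scaled to the mean log2 of the hur features, the values were -0.073 (adjusted p 0.97) for miR-221 and 0.14 (adjusted p 0.37) for miR-222. The call of miR-221 was the least stable of the set. It was lost in 7 of the 12 fits that left out an array, which were those without replicate 1, 2 or 3 of control shRNA with vehicle, replicate 2 or 3 of Dicer shRNA with vehicle and replicate 1 or 3 of Dicer shRNA with metformin, with values from -1.18 to -0.84 over all 12 and an adjusted p of up to 0.14. This comparison does not use the arrays of control shRNA with vehicle. Without any 1 of them the value stayed at -0.99, and only the adjusted p moved (0.054 to 0.061), through the shared spread. With the authors' deposited log2 values neither member passed, at -0.42 (adjusted p 0.35) for miR-221 and -0.42 (adjusted p 0.064) for miR-222. The split of all calls was 13 higher and 38 lower, and 34 and 12 with the authors' values, 33 and 25 after quantile normalization, 15 and 24 with the viral probes, 6 and 44 without scaling, and 34 and 17 and then 87 and 13 with the median and the mean log2 of the hur features.

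**Figure D2:**
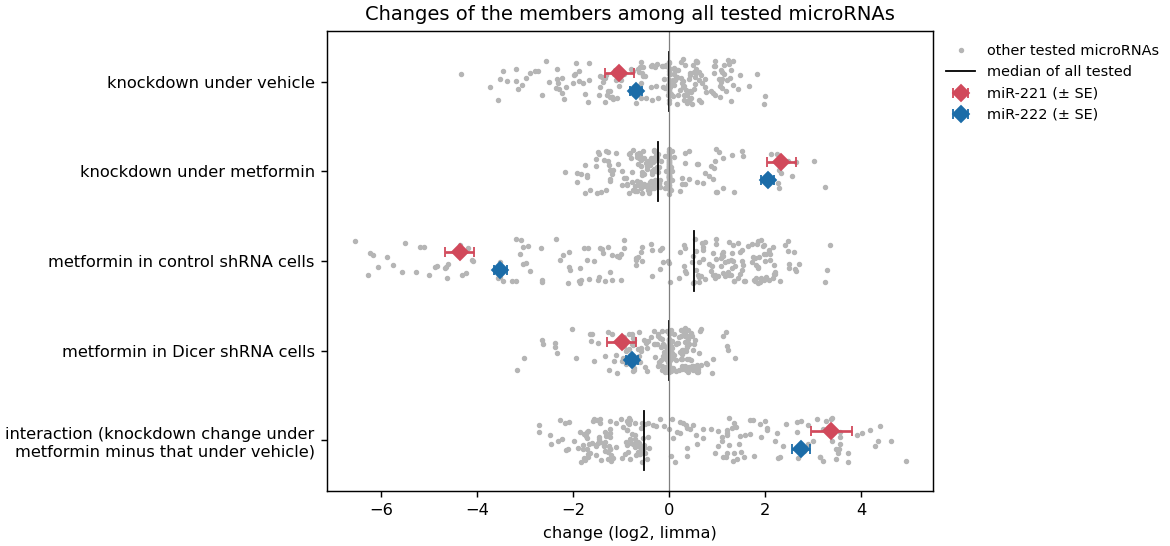
Change (log2, limma) of miR-221 and miR-222 (diamonds, ± SE) in the 4 comparisons and the interaction, with each of the other tested microRNAs as a grey point and the median of all 208 as a black bar. Under metformin the members lie near the upper end (2.33 and 2.05), and in control shRNA cells with metformin they lie far below the median (-4.37 and -3.52 against 0.52).

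The third question was whether the difference between the lines depended on treatment. The knockdown change under metformin exceeded that under vehicle by 3.38 ± 0.43 for miR-221 (adjusted p 6.6e-05, limma) and by 2.74 ± 0.19 for miR-222 (adjusted p 6.9e-07). An effect of the slide that acts alike on both lines on the log2 scale cancels in this term. Of the 208 tested, 37% had an interaction called higher and 76.4% had one called in either direction, and 19 values lay above that of miR-221 and 30 above that of miR-222. Among the 98 names detected on all 12 arrays, tested alone, 21 were called higher and 51 lower. The term of the hur features had a median of 2.84, with all 4 above 0, and that of the viral probes -1.32, with all 10 below 0. Scaled to the mean log2 of the hur features, the interaction was 0.90 ± 0.28 (adjusted p 0.012) for miR-221 and 0.27 ± 0.16 (adjusted p 0.14) for miR-222. Under the other scalings and filters run, the values ranged from 2.10 to 4.89 for miR-221 and from 2.06 to 4.28 for miR-222, each called. The split of all calls, 77 higher and 82 lower, was 114 and 21 with the viral probes and 64 and 106 and then 40 and 137 with the median and the mean log2 of the hur features.

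**Figure D3:**
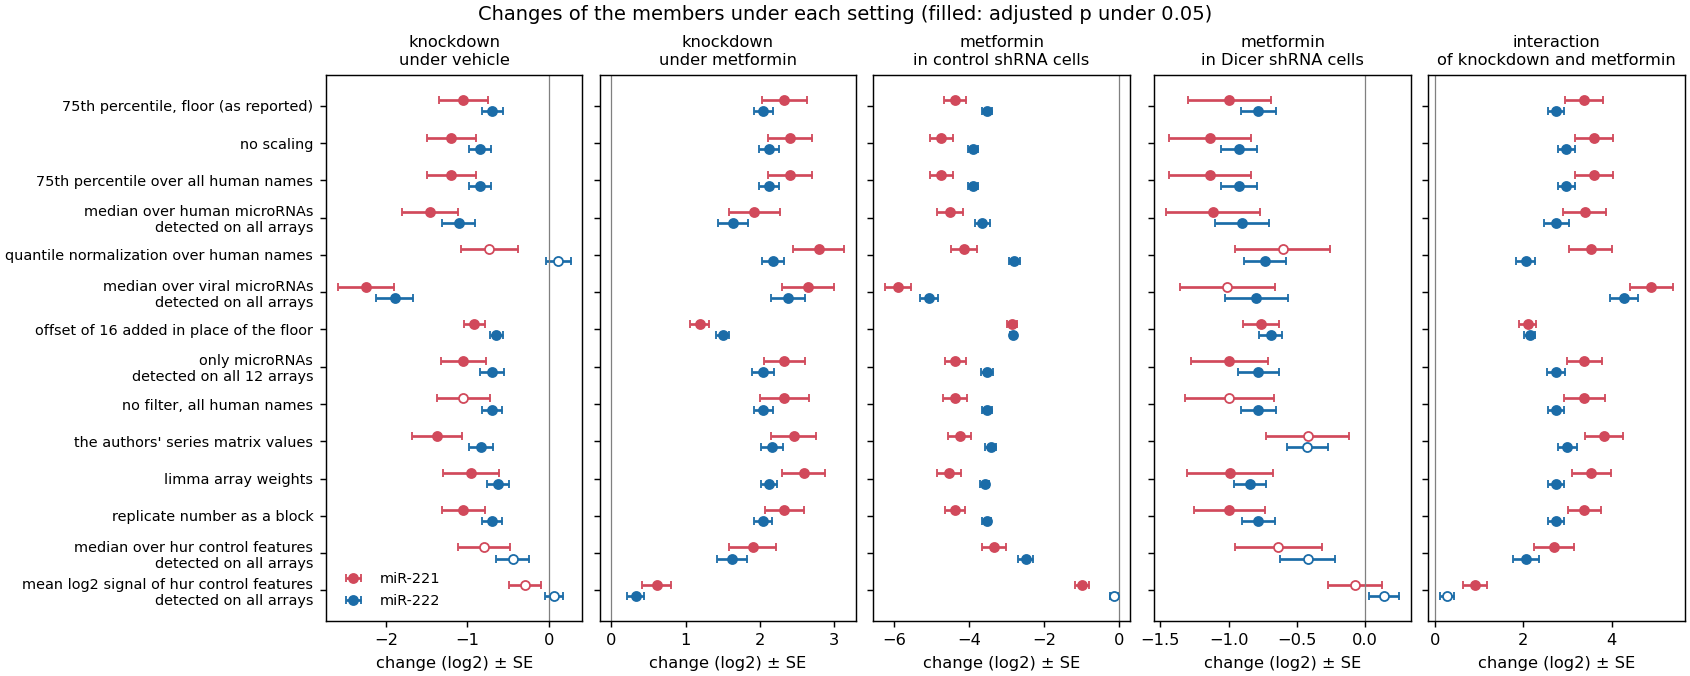
Change (log2 ± SE) of miR-221 and miR-222 in the 4 comparisons and the interaction under the setting reported and 13 alternatives, with filled points where the adjusted p was under 0.05. With the mean log2 of the hur features as the scale, all values shrink in size, from -4.37 to -0.98 for miR-221 and from -3.52 to -0.13 for miR-222 with metformin in control shRNA cells. The values of miR-222 change sign for the knockdown under vehicle (-0.69 to 0.060) and for metformin in Dicer shRNA cells (-0.78 to 0.14).

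Whether the members changed by the same amount was examined within arrays, where any array factor cancels. The log2 difference of miR-222 minus miR-221 was 0.80, 0.69 and 0.64 in control shRNA cells with vehicle and 1.05, 1.04 and 1.10 in Dicer shRNA cells with vehicle. It was 2.08, 1.30 and 1.30 in control shRNA cells with metformin and 1.33, 0.93 and 1.55 in Dicer shRNA cells with metformin. The difference was smallest in control shRNA cells with vehicle, where it did not overlap any other group. On average it was larger by 0.35 in Dicer shRNA cells with vehicle and by 0.85 in control shRNA cells with metformin, on all 3 arrays in each case. Each of these differences had an exact two-sided permutation p of 0.10, the smallest that 3 against 3 arrays allow, or 0.20 adjusted over the 4 comparisons. The groups overlapped in the other comparisons, where the average differed by -0.28 (exact permutation p 0.60) between the lines under metformin and by 0.21 (exact permutation p 0.40) with metformin in Dicer shRNA cells. Without replicate 1 of control shRNA with metformin, on which miR-221 was dimmest, the average differed by 0.59 with metformin in control shRNA cells and by -0.03 between the lines under metformin. Over all fits that left out an array, the difference with metformin in Dicer shRNA cells ran from 0.074 to 0.38. When 16 was added to each signal, the difference with metformin in control shRNA cells was 0.030 and that in Dicer shRNA cells 0.072, and it was 0.27 between the lines under vehicle and 0.31 under metformin.

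**Figure D4:**
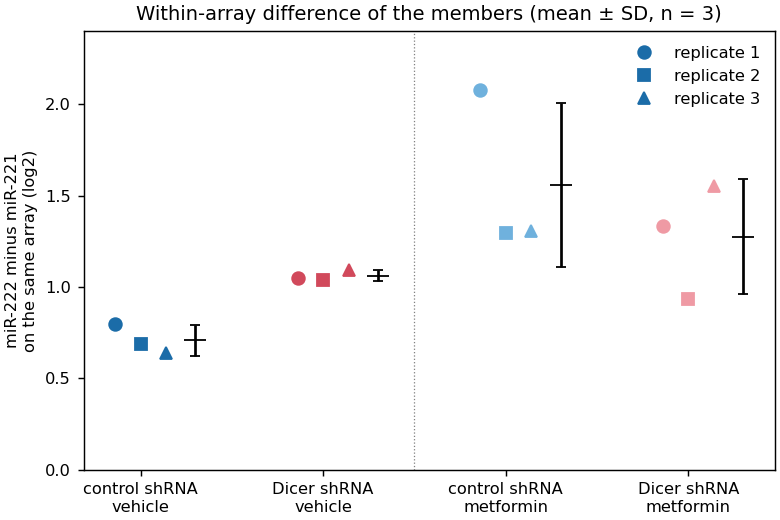
Difference of miR-222 minus miR-221 on the same array (log2) for the 12 arrays, with the mean ± SD (n = 3) of each group in black. Control shRNA with vehicle is lowest (0.71 ± 0.08) and does not overlap the others, and control shRNA with metformin holds the highest array (2.08).

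The microRNAs whose profile over the 12 arrays was most like that of each member were found by the root mean square distance in log2 units, after each profile was centred on its mean. Among the 97 other microRNAs detected on all arrays, miR-100 was nearest to miR-221 at 0.13, followed by miR-222 at 0.38, miR-24 at 0.43, miR-23a at 0.49 and miR-1826 at 0.55, while the median distance was 2.00. The nearest to miR-222 were miR-1826 at 0.33, miR-1308 at 0.36, miR-221 at 0.38, miR-100 at 0.44 and miR-1287 at 0.52, with a median distance of 1.67. miR-100 is a microRNA of another chromosome that targets mTOR, and miR-24 and miR-23a share a different cluster. The entries miR-1826 and miR-1308 have since been withdrawn as microRNAs. The 2 members of the cluster were therefore close, but neither was the other's nearest profile. miR-100 fell by 1.18 ± 0.27 between the lines under vehicle and rose by 2.55 ± 0.27 under metformin, and it fell by 4.64 ± 0.27 with metformin in control shRNA cells. The hur features, set beside the members after the values were seen, lay as near as these microRNAs. hur_6 was at 0.22 and hur_4 at 0.32 from miR-221, and hur_2 was at 0.21 from miR-222, nearer than any human microRNA, while hur_1 was at 1.34 and 1.02. All profiles share the arrays, the slides and the scaling.

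**Figure D5:**
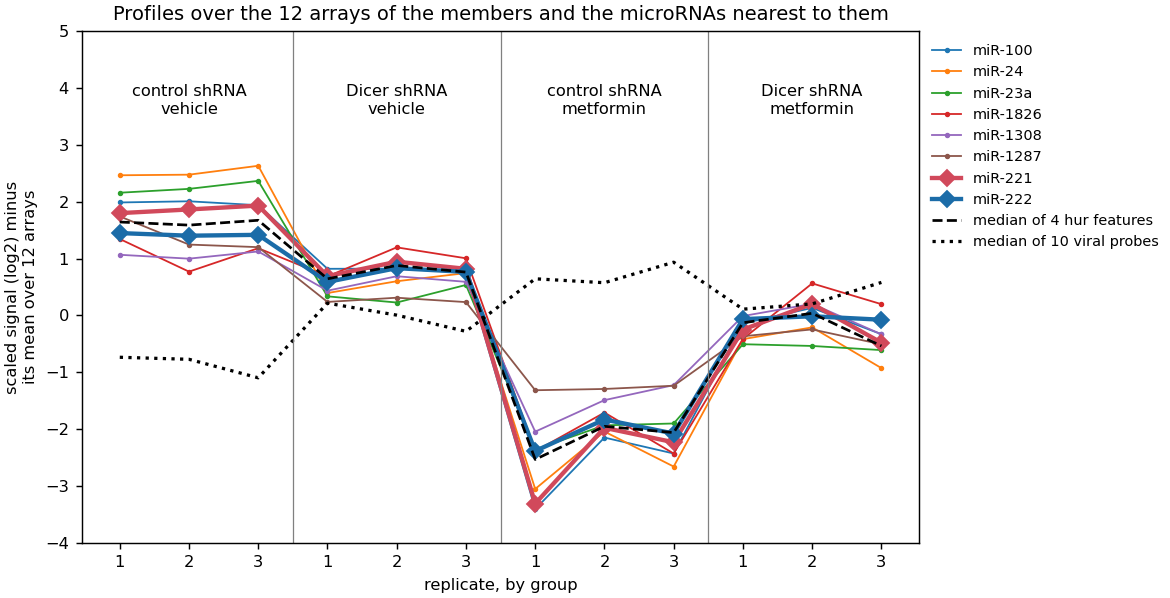
Scaled signal (log2) minus its mean over the 12 arrays for miR-221, miR-222 and the microRNAs nearest to either, with the median of 4 hur control features (dashed) and of 10 viral probes (dotted), by group and replicate. The members and the hur median are highest in control shRNA with vehicle and lowest in control shRNA with metformin, and the viral median is lowest in the former and highest in the latter.

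Other microRNAs with roles near those of the cluster were taken from 3 lists. Of 5 microRNAs reported to target p27, miR-24 and miR-181a could be tested. Between the lines under vehicle, miR-24 fell by 1.95 ± 0.25 and miR-181a had -0.09 ± 0.13, and under metformin both rose, by 2.07 ± 0.25 and 1.11 ± 0.13. With metformin in control shRNA cells miR-24 fell by 5.11 and miR-181a fell by 1.71, and in Dicer shRNA cells they fell by 1.10 and 0.51. Of 6 reported to target the oestrogen receptor message ESR1, 4 were tested. Of these, miR-18a and miR-18b were detected in control shRNA cells with vehicle alone and passed the filter through that group, so that they had to be lower in the other groups and could not be called between groups that both lacked them. miR-22 fell by 0.80 ± 0.18 between the lines under vehicle and fell by 1.44 ± 0.18 with metformin in control shRNA cells. It had 0.40 ± 0.18 between the lines under metformin and -0.24 ± 0.18 with metformin in Dicer shRNA cells, neither called. miR-193b had -0.62 ± 0.31 between the lines under vehicle, not called, and fell by 2.10 ± 0.31 with metformin in control shRNA cells, a value limited by the floor because 1 of 3 arrays detected it. Counted with those fixed by the filter, 3 of the 4 were called lower under vehicle, against 38% of all tested, and 4 of 4 with metformin in control shRNA cells, against 40.4%.

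Of 7 other microRNAs linked to basal-like or triple-negative breast cancer, 3 were tested. Of these, miR-146a and miR-155, both inflammation-induced microRNAs, fell between the lines under vehicle by 2.74 ± 0.29 and 0.56 ± 0.10, where 38% of all tested were called lower. miR-18a is on this list too, and its fall was fixed by the filter. The pattern of miR-155 was unlike that of the cluster, since it also fell between the lines under metformin, by 0.98 ± 0.10, and rose by 0.31 ± 0.10 with metformin in control shRNA cells. miR-146a was at least 45.6-fold lower with metformin in control shRNA cells, where no array detected it. The 4 others of the list were detected on no array.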

How the data were processed

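The arrays were 1-colour Agilent microRNA arrays of Cy3-labelled total RNA, per the labels, whose protocol names a kit for labelling amplified mRNA although the features are microRNAs; how this bears on the signals was not tested. Per the file headers, each deposited array file gives the total gene signal of a name as a linear intensity, the error of that signal and whether the name was detected. The submitters' processing notes name Agilent Feature Extraction 9.1. Undetected names hold 0.1. The authors' deposited series table holds log2 values whose normalization is not given in the sources used here.

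Each array was scaled to the 75th percentile of the microRNAs detected on all arrays. Scaled signals were raised to a floor of 3.01, the 5th percentile of an array's detected signals (median of the 12). Neither member lay at the floor. Group means were fitted in limma 3.58.1 (R 4.3.3, residual degrees of freedom 8, prior 1.85). The code of the fit was tried on simulated data with independent errors and no shared array effect. That trial does not bear on whether the calls here are sound. A fold given as "at least" sets the undetected group, per array, at the floor or, where higher, at the lowest detected signal. Named are the members, the 5 nearest profiles of each, the strands opposite the guides and up to 4 microRNAs per list. The members and lists were chosen with earlier results of these data known. The replicate numbers were not taken as pairs. The deviations of same-numbered replicates from their group means had correlations of -0.18 to 0.32, within the range of -0.41 to 0.39 for replicates of different number. Sequences are RefSeq's (GRCh38.p14). Figures used matplotlib 3.10.9.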

Additional observations from a re-analysis of the deposited data

Results flagged for a closer look

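The difference between Dicer shRNA and control shRNA cells depended on treatment for both members, by a test of the interaction itself (limma), and had opposite signs under vehicle and metformin in the setting reported. The interaction was 3.38 for miR-221 and 2.74 for miR-222, with adjusted p of 6.6e-05 and 6.9e-07. Of the 208 tested, 76.4% had an interaction called in either direction and 37% had one called higher. Each Dicer shRNA array lay below each control shRNA array under vehicle and above it under metformin, for both members. The lines lay apart in this direction in 39.4% of the 208 tested under vehicle and in 13.9% under metformin. Because the vehicle and metformin arrays lay on different slides, a slide effect that differs between the lines and a treatment effect cannot be told apart. The hur control features moved the same way (median interaction 2.84). The sign did not change for miR-222 after quantile normalization (0.12 under vehicle, 2.18 under metformin) or with the mean log2 of the hur features (0.060 and 0.33), where its interaction was 0.27 (adjusted p 0.14). The source names call both metformin groups control, so the result rests on the titles.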

How the results depend on the processing

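Over 11 other settings, 12 fits without an array and 2 further scalings added after seeing the data, 225 of 250 member values kept their direction and side of the threshold. Many of the log2 values could not move, although their adjusted p could. An array left out alters the log2 values only of comparisons that use its group. The filters and the replicate block leave each log2 value as it was. The adjusted p can change in every comparison, since the spread is shared by all groups and the adjustment runs over all names tested. Leaving aside the fits without an array, miR-221 with metformin in Dicer shRNA cells was unchanged in this sense in 7 of 13 settings. The 75th percentile over all human names was the 0.1 of undetected names on each array, so that scaling equals none. Quantile normalization gave -0.73 (miR-221) and 0.12 (miR-222) for the knockdown under vehicle, -0.60 for miR-221 with metformin in Dicer shRNA cells, and -0.13 for the within-array difference there. Scaling to viral probes gave miR-221 -1.01 with metformin in Dicer shRNA cells (adjusted p 0.069) and 52 calls for the knockdown under metformin, against 81. Without a filter, miR-221 kept its values of -1.05 (knockdown under vehicle) and -0.99 (metformin in Dicer shRNA cells) but lost both calls. There 851 names were tested and its SE was 0.33, against 0.30. The calls with metformin in Dicer shRNA cells were then 24, against 51. The authors' values gave -0.42 for each member with metformin in Dicer shRNA cells and a within-array difference of -0.00016 there. Adding 16 gave a within-array difference of 0.31 for the knockdown under metformin. Scaling to the median signal of the hur features gave -0.80 (miR-221) and -0.44 (miR-222) for the knockdown under vehicle and -0.63 and -0.42 with metformin in Dicer shRNA cells. Scaling to their mean log2 gave -0.29 and 0.060 for the knockdown under vehicle, -0.073 and 0.14 with metformin in Dicer shRNA cells, and for miR-222 -0.13 with metformin in control shRNA cells and 0.27 for the interaction. The causes of these shifts were not tested.

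Counts of calls for the knockdown under metformin were 129 after median scaling, 126 with array weights, and 124 and 151 with the hur scalings. With metformin in Dicer shRNA cells they were 82 with array weights, 100 with the mean log2 of the hur features and 32 to 72 with an array left out. The 32 belong to the fit that omits the third metformin array of the Dicer shRNA line. Among the 98 microRNAs detected on all arrays they were 64 and 44 for the knockdown, 86 and 28 for metformin and 72 for the interaction, with fewer names tested. With 1 array left out, miR-221 ranged from -1.18 to -0.84 with metformin in Dicer shRNA cells. A replicate block changed no call of a member (miR-221 for the knockdown under vehicle -1.05, adjusted p 0.0079). Where miR-221 was dimmest, a signal of 4.03 with a stated error of 1.30 limits its value.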
